A study of Mus musculus with 2 samples.

Results

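The genes described here are 39 regulators and effectors of p53 signalling and programmed cell death, listed by name. They were compared between 1 microarray of Id1 knockout and 1 microarray of wild-type mouse embryonic stem (ES) cells. A member was measured through probe sets annotated to its symbol alone, which gave 75 probe sets for 36 of the 39 genes, out of 12393 genes with such a probe set on the array. By role the list held 3 genes for p53 and its inhibitors, 11 p53 targets, 12 genes of the BCL2 family, 5 caspases, 6 genes of the apoptosome and of the inhibitors of apoptosis (IAP), and 2 death receptor genes. Trp53 and Bax had no probe set under their own symbol in the annotation used and were not analysed here. Bnip3l was represented by 3 probe sets shared with its pseudogene and was kept out of the counts.

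p53 is a transcription factor that is held at a low level by the ubiquitin ligase Mdm2 and its partner Mdm4, and that accumulates after DNA damage to induce genes of cell cycle arrest, repair and cell death. In the mitochondrial pathway of apoptosis, BH3-only proteins engage pro-survival BCL2 proteins or activate Bax and Bak, which permeabilise the outer mitochondrial membrane. Released cytochrome c assembles with Apaf1 into the apoptosome, which activates caspase-9, while IAP proteins restrain caspases and receptor signalling. Death receptors such as Fas recruit Fadd and caspase-8 instead. Mouse ES cells are known for a weak G1 checkpoint and a ready apoptotic response to damage.

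A full p53 response element is a pair of ten-base palindromes, and 1 of these, called the p53 decamer here, was searched for. One search reads both strands because the motif is its own reverse complement. It was looked for in RefSeq promoters of the mouse assembly GRCm38.p6, from 250 bases before to 50 bases after each annotated gene start. It occurred in 10 of the 33 listed genes with a promoter in that table, in 6 of 8 p53 targets, in 1 of 9 BCL2 family genes and in 0 of 5 caspase genes. Over all 32851 promoters of that length the share was 8.36%, and by gene it was 9.55% of 27025. A pair of decamers up to 13 bases apart was in 0 of the listed genes and in 0.073% of all promoters, so each match shown is a single decamer and not a full element. The matches in measured genes are shown so that the sequence searched for can be seen, with the decamer in capitals and 5′ to 3′ along the gene's strand.
Mdm2 (chr10:117710925-117710954, minus strand): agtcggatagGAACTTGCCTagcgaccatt
Ccng1 (chr11:40755452-40755481, minus strand): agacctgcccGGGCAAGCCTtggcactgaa
Sesn1 (chr10:41887256-41887285, plus strand): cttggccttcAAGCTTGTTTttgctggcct
Gadd45a (chr6:67037428-67037457, minus strand): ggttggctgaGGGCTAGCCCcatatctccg
Ei24 (chr9:36797325-36797354, minus strand): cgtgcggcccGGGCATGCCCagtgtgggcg
Polk (chr13:96519399-96519428, minus strand): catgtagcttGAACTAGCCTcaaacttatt
Aen (chr7:78895927-78895956, plus strand): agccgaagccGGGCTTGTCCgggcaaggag
Birc2 (chr9:7836777-7836806, minus strand): cagtcaacccAGGCTAGTCTcgaatttgcg
The decamer began 10 bases before the gene start in Ei24, 40 in Gadd45a, 173 in Sesn1, 185 in Ccng1, 186 in Mdm2 and 231 in Polk. In Aen it began 121 bases before 1 annotated start and at base 11 of another, and in Birc2 at base 11 of the transcript from 1 of its starts. A match is a description of these letters and not evidence of binding. Id proteins sequester E proteins, whose preferred E-boxes CAGCTG and CAGGTG were searched on both strands and separately from the decamer, so sites may overlap. An E-box lay in 9 of the 33 genes (Aen, Bad, Bbc3, Bcl2l11, Diablo, Ei24, Fadd, Mdm2 and Mdm4), against 35.9% of all genes with a promoter.

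Both cultures were grown on gelatin in serum and LIF, the cytokine that sustains self-renewal, and differed in the labels by the Id1 genotype: Id1-/- against wild type. The labels name total RNA and a biotin label, and 1 array was run for each. The labels state neither the number of clones nor the part of Id1 removed nor the origin of the lines, so genotype cannot be told apart from clone, culture or array, and no test between genotypes was possible. Differences are therefore given as values with no replicate check, as log2 knockout minus wild type. The Id1 probe set read 461 against 1045 (knockout value first), 2.30-fold lower in the knockout.

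Of the ES cell markers, all 7 lay above the median of both arrays, with summed intensities of 29568 (knockout) against 35433 (wild type), and Nanog was the 1 at least 2-fold different (2195 against 5423, 2.51-fold lower in the knockout). Of 8 measured fibroblast and feeder markers 6 did not reach the brightness filter, and the others had log2 differences of 0.01 and -0.54. Among those 6, Col1a1 (133 against 83.0), Lum (80.1 against 70.5), Dcn (71.9 against 18.1) and S100a4 (78.2 against 6.45) read higher in the knockout. Dcn and S100a4 were under the floor in the wild type. Col3a1 read lower (38.3 against 69.0), under the floor in the knockout. The 8 summed to 801 against 725, with Postn under the floor on both arrays. Of 9 primitive endoderm markers 6 did not reach it, Gata4, Gata6 and Sox17 among them, while the 3 that did lay between 0.76 and 1.35, with Lamb1 (773 against 298) past 2-fold. The 9 summed to 1756 against 1132, with Sox7 and Pdgfra under the floor on both arrays. Lamb1 made up most of that gap, and its other passing probe set gave 0.53. Below the filter, Gata4 (87.3 against 118), Sox17 (88.8 against 134) and Foxa2 (118 against 137) read lower in the knockout. Gata6 read 94.7 against 92.7. In RNA from whole cultures, fewer cells that express a gene and less of its RNA per cell cannot be told apart. The part of other cell types in the differences below was not tested.

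Where a gene had several probe sets, the brightest by mean log2 intensity stood for it. A gene entered the counts when its brighter value reached the median of its array, 155.0 for the knockout and 152.5 for the wild type. Of the 36 measured genes 30 passed, 29 of them on both arrays, and 6 did not (Bcl2, Casp1, Casp8, Casp9, Birc3 and Fas). Bcl2l2 passed through the knockout array alone (182 against 149). Intensities are arbitrary units that compare the arrays for 1 gene and do not rank genes against each other. Technical error was judged from probe sets of the same gene, whose log2 differences had a median SD of 0.22 over 2567 genes.

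**Figure D1:**
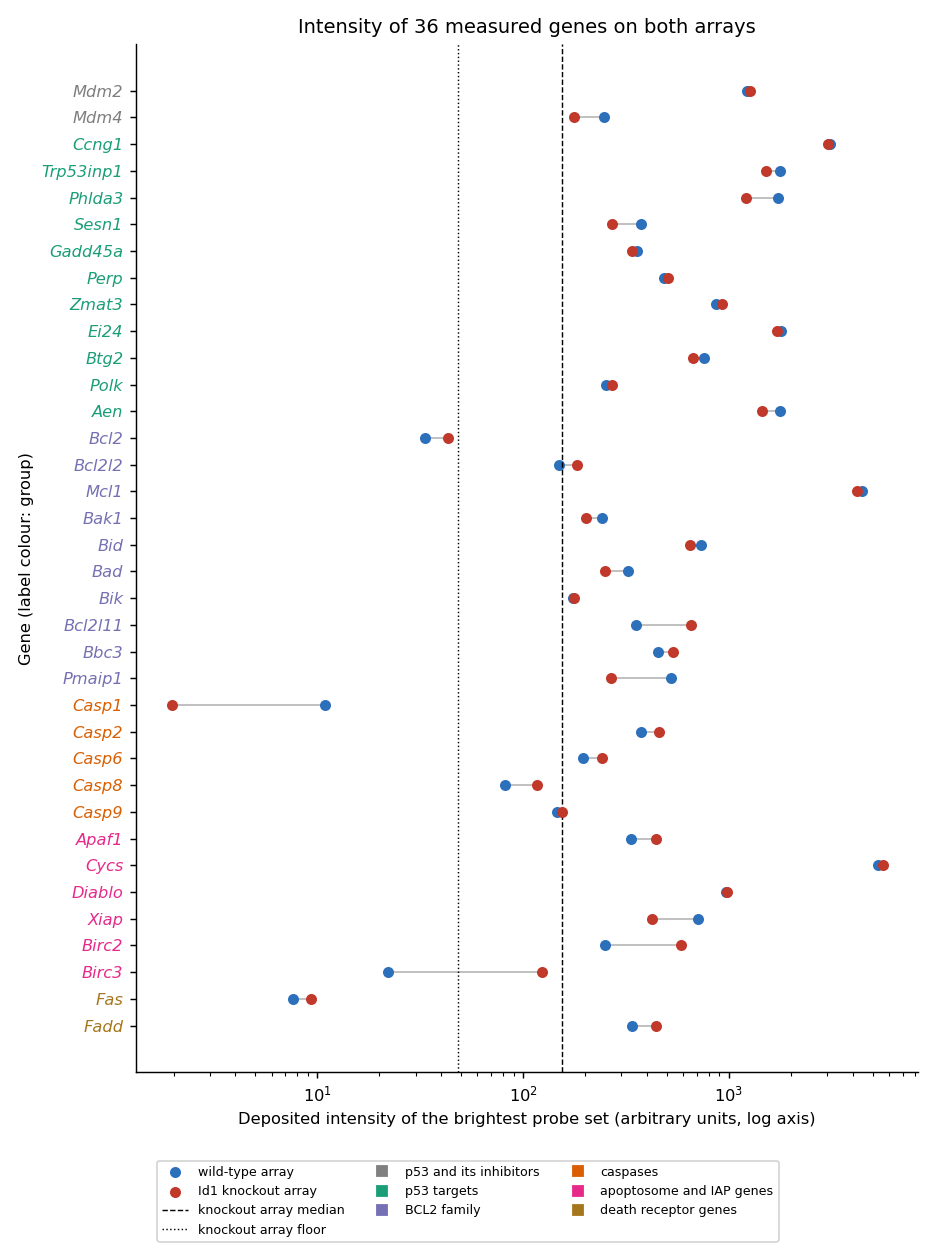
Deposited intensity (arbitrary units, log axis) of the brightest probe set of each of the 36 measured genes on the Id1 knockout array (red) and the wild-type array (blue), with the knockout array's median (155.0, dashed) and floor (48.4, dotted). The paired points nearly coincide for most p53 targets, and the widest gaps above the median are those of Birc2, Pmaip1, Bcl2l11 and Xiap.

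The members differed between the arrays about as much as all genes did, and the larger departures went both ways. Their median distance from 0 was 0.26, against 0.29 for all genes. Birc2, an IAP gene, was the 1 member of 30 at least 2-fold higher in the knockout, against 3.92% of all 7369 genes past the filter, and 0 were at least 2-fold lower, against 3.92%. At 1.5-fold, Birc2 and the BH3-only gene Bcl2l11 were higher, against 10.5% of all genes, and the BH3-only gene Pmaip1 and the IAP gene Xiap were lower, against 11.5%. These 4 of 30 stand beside 22.0% of all genes past 1.5-fold in either direction, so the list did not hold more large differences than the array as a whole. The median log2 difference of the 30 was -0.03, beside -0.01 for all genes. The other 26 lay between -0.53 (Phlda3) and 0.38 (Apaf1), and 13 of the 30 lay closer to 0 than the SD between probe sets of a gene, as 41.0% of all genes did.

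**Figure D2:**
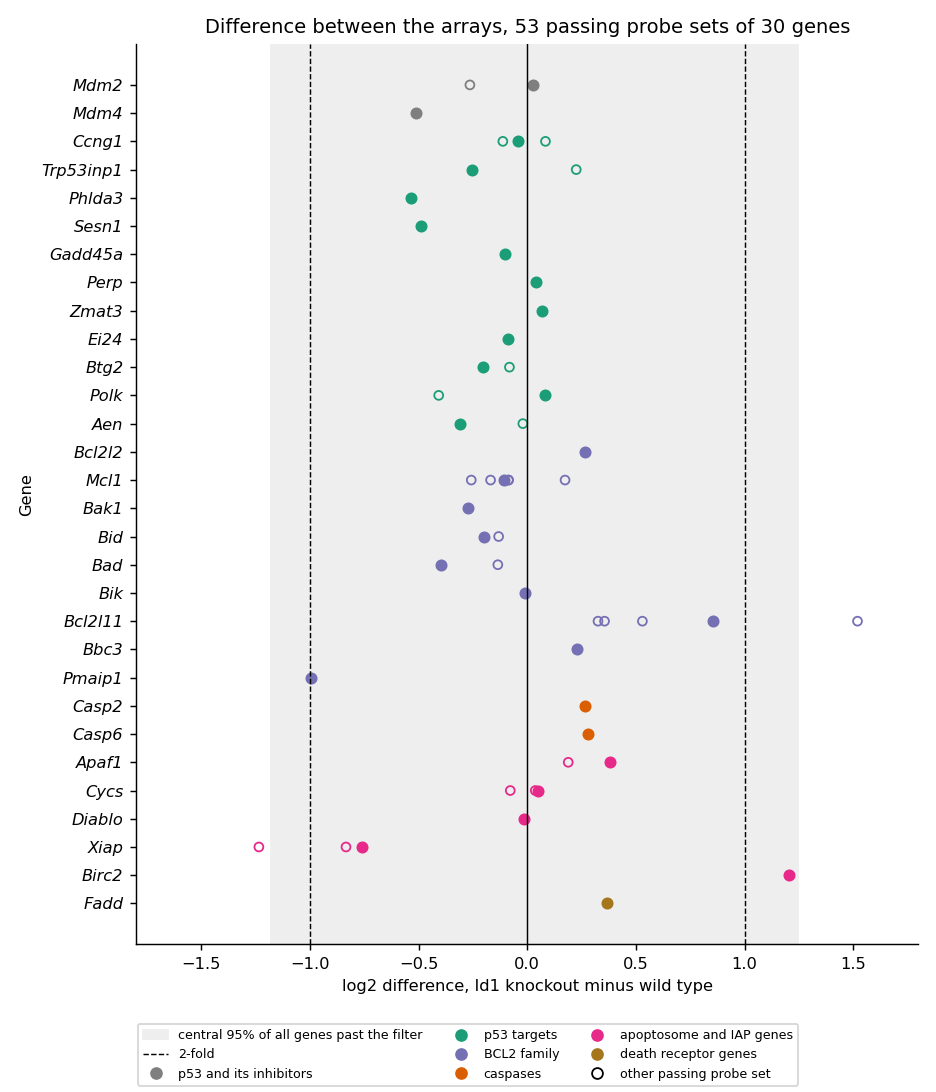
Log2 difference, knockout minus wild type, of the 53 passing probe sets of 30 genes; filled points are the brightest probe set and open points the others, dashed lines mark 2-fold and the grey band spans the central 95% of all genes past the filter (-1.18 to 1.24). All 5 Bcl2l11 points lie right of 0 and all 3 Xiap points left of it, with 1 outer point of each gene outside the band.

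The p53 inhibitors gave small or dim differences. Mdm2, itself a p53 target that closes a negative feedback loop, read 1267 in the knockout against 1224 in the wild type by its brighter probe set, and 1053 against 1244 by the other. Those log2 differences were 0.03 and -0.26, so the sign depended on the probe set. Mdm4, a relative of Mdm2 that blocks p53's activation domain, read 177 against 248 by its passing probe set (log2 difference -0.51, 1.43-fold lower). Its other probe set, below the filter, read 129 against 135.

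Among the 11 genes filed here as p53 targets the arrays were close. All 11 passed the filter, and 0 were past 1.5-fold in either direction, against 22.0% of all genes. Log2 differences below 0 were seen in 8 of the 11, where 51.2% of all genes had them. The median of the 11 was -0.10, and their median distance from 0 was 0.10, against 0.29 for all genes. That closeness depends on which targets are counted. With Mdm2, Bbc3, Pmaip1, Fas, Apaf1 and Bax, which are p53 targets as well, 15 genes passed, 1 (Pmaip1) was past 1.5-fold lower, the range was -0.99 to 0.38 and the median was -0.09. Their median distance from 0 was 0.20. Of the 11 genes 5 lay among the 1474 brightest genes, where the median distance from 0 was 0.20, so brightness went along with the small differences and its part was not tested.

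The cell cycle regulator gene Ccng1, encoding cyclin G1, read 3044 in the knockout against 3088 in the wild type. Its 3 probe sets averaged -0.02 ± 0.10 (SD, n = 3 probe sets), a difference within their own spread. Zmat3, an RNA-binding zinc finger gene, read 924 against 867, and Perp, a desmosomal and death-associated membrane protein gene, 507 against 485. Both differed by less than 1.05-fold. Gadd45a, a growth arrest and stress signalling gene, read 338 against 357, and Ei24, an endoplasmic reticulum protein gene induced by p53, 1712 against 1789.

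The values farthest from 0 in the group were those of Phlda3 and Sesn1. Phlda3, a PH-domain inhibitor of AKT, read 1217 in the knockout against 1732 in the wild type (1.45-fold lower, 1 probe set). Sesn1, a sestrin that restrains mTORC1, read 271 against 373 by its passing probe set (1.40-fold lower). Its other probe sets did not reach the filter, but read 69.1 against 119 and 85.8 against 135, so the 3 went 1 way. Aen, a p53-induced exonuclease gene, read 1457 against 1774 and 864 against 862 by its passing probe sets, and 126 against 85.6 by one below the filter. Their log2 differences were -0.31, -0.02 and 0.54, so the sign depended on the probe set. The antiproliferative gene Btg2 read 667 against 756 and 534 against 556.

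Besides Ccng1 and Aen, Trp53inp1 and Polk had probe sets of opposite signs. Trp53inp1, a p53 cofactor in stress and autophagy, read 1513 against 1773 by one probe set and 361 against 304 by the other, with log2 differences of -0.25 and 0.23. Polk, a translesion DNA polymerase gene, read 271 against 252 and 139 against 181, or 0.08 and -0.41, and the latter probe set passed the filter through the wild-type array alone. No direction can be given for either gene, although Trp53inp1 is among the 8 below 0 by its brighter probe set.

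Of the pro-survival members of the BCL2 family, 2 could be read. Mcl1, a short-lived guardian of the mitochondrial membrane, read 4174 against 4418, and its 6 probe sets averaged -0.09 ± 0.14 (SD, n = 6 probe sets). Of the 6, 5 were below 0 and 1 above. Bcl2l2, encoding BCL-W, read 182 against 149, a log2 difference of 0.27 on a signal near the array median, and its other 3 probe sets lay below the filter. Bcl2 itself read 43.1 and 33.2, under the floor of 48.4 and 47.6 on both arrays, so no difference can be given.

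Among the BH3-only genes, Bcl2l11 and Pmaip1 lay farthest from 0, on opposite sides. Bcl2l11, encoding BIM, an activator that binds all pro-survival BCL2 proteins, was higher on the knockout array by each of its 5 probe sets. They read 652 against 355, 550 against 374, 340 against 261, 227 against 178 and 177 against 60.8, knockout value first. The log2 differences ran from 0.33 to 1.52 with a mean of 0.72 ± 0.50 (SD, n = 5 probe sets), and the brightest gave 0.85, or 1.81-fold. The probe set at 1.52 passed the filter through the knockout array alone, where it was high, and the 4 that passed on both arrays averaged 0.52 ± 0.24 (SD, n = 4 probe sets). A value at least as high was seen in 5.50% of all genes. The direction was shared by the probe sets, while the size varied between them. Such agreement was common: of 2567 genes with at least 2 passing probe sets, 56.8% had all of them go 1 way. Among the listed genes it was 7 of 13.

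Pmaip1, encoding NOXA, a p53-induced BH3-only protein that neutralises MCL1, went the other way. Its single probe set read 268 against 526, 1.99-fold lower, just short of the 2-fold limit (log2 difference -0.99). Quantile normalization and a brightness-dependent correction put it at -1.01 and -1.02, past the limit. Those were the only 2 of 11 alternative settings to do so, and the weakest value was -0.87, with an offset of 50. Of all genes 3.96% were at least as low. Bbc3, encoding PUMA, the other BH3-only gene that p53 is best known to induce, read 537 against 450 (log2 difference 0.23).

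The remaining BH3-only genes and the effector were within 1.32-fold. Bad, which is kept inactive by survival kinases, read 251 against 325 and 196 against 212, lower by both probe sets (mean -0.27 ± 0.18, SD, n = 2 probe sets). Bid, which is cleaved by caspase-8 to link death receptors to mitochondria, read 649 against 732 and 264 against 285 (mean -0.16 ± 0.05, SD, n = 2 probe sets). Bik read 177 against 175 by its passing probe set. Its other probe sets, both under the filter, read 120 against 122 and 67.6 against 119. Bak1, the pore-forming effector, read 202 against 241 by the passing probe set (log2 difference -0.27), while the dimmer one went the other way at 75.7 against 20.7. The probe sets shared by Bnip3l, a mitophagy receptor gene, and its pseudogene read 1049 against 1200, 643 against 690 and 348 against 348.

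The caspase genes that passed the filter were slightly higher on the knockout array. Casp2, an initiator linked to the PIDDosome, read 457 against 374, and Casp6, an executioner, 242 against 196. Their log2 differences of 0.27 and 0.28 were near the SD of 0.22 between probe sets, and each rests on 1 probe set. Casp8, the initiator of the receptor pathway, read 116 against 81.9, and Casp9, the initiator of the apoptosome, 154.8 against 146.7, the former value just under the knockout median of 155.0. The second Casp9 probe set read 69.1 against 38.7. The inflammatory caspase gene Casp1 read 1.96 and 10.9, under the floor on both arrays.

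Genes of the apoptosome and its regulators fell into a flat set and a set of larger differences. Cycs, encoding cytochrome c, read 5608 against 5327, and its 3 probe sets averaged 0.0031 ± 0.07 (SD, n = 3 probe sets). Cytochrome c has processed pseudogenes, so its probe sets may share signal. Diablo, encoding SMAC, the mitochondrial antagonist of IAP proteins, read 979 against 972. Apaf1, the scaffold of the apoptosome, read 443 against 334 and 307 against 265, higher by both probe sets (mean 0.29 ± 0.14, SD, n = 2 probe sets).

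The IAP genes Birc2 and Xiap differed in opposite directions. Birc2, encoding cIAP1, a ubiquitin ligase of TNF receptor and NF-κB signalling, read 583 against 249 by its single probe set, 2.30-fold higher (log2 difference 1.20). Of 1473 genes of like mean intensity (371 to 653), 6.79% were past 2-fold in either direction, and 2.66% of all genes were at least as high. Birc3, encoding its close paralog cIAP2, read 123 against 22.2 by one probe set, below the filter on both arrays and under the floor in the wild type. It was therefore not counted, and its other probe set read 4.09 and 13.3. Birc2 and Birc3 are related in sequence, and shared signal between their probe sets was not tested.

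Birc2 and Birc3 lie side by side on chromosome 9, so the neighbouring genes were read as well, a choice made after the Birc2 value was seen. Tmem123, encoding a surface mucin-like protein and next to Birc2 in the GRCm38.p6 gene order, read 267 against 120, 2.20-fold higher, and passed the filter through the knockout array alone. Yap1, the Hippo pathway coactivator on the other side of Birc3, read 2484 against 1459 (1.68-fold higher), and its 2 probe sets had log2 differences of 0.74 and 0.44. The 4 consecutive genes Tmem123, Birc2, Birc3 and Yap1 all read higher on the knockout array. Of all 7369 genes past the filter, 3593 lay above 0. Among the 4, only Birc2 and Yap1 passed the filter on both arrays, and Birc3 was below it. The nearest measured genes beyond them, Mmp7 on one side and Trpc6 on the other, did not reach the filter. Mmp7, next to Tmem123, read 24.8 against 122, lower in the knockout and under its floor there, and Trpc6 was under the floor on both arrays. The next that did were Dcun1d5 (1685 against 1222, log2 difference 0.44) and Mtmr2 (391 against 411, -0.10). The other passing probe set of Mtmr2 gave 0.20, so its sign depended on the probe set. The median over 415 genes of chromosome 9 was -0.01.

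**Figure D3:**
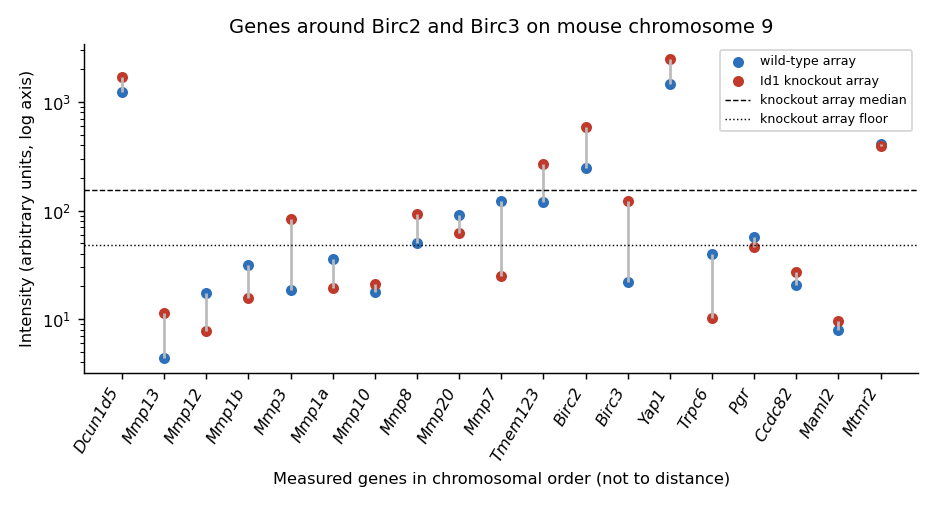
Intensity (arbitrary units, log axis) on the knockout array (red) and the wild-type array (blue) of measured genes within 12 protein-coding genes of Birc2, in chromosomal order and not to distance, with the knockout array's median (dashed) and floor (dotted). Red lies above blue for Tmem123, Birc2, Birc3 and Yap1, while most of the other genes are dim on both arrays.

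Xiap, which encodes the IAP that directly inhibits caspases, was lower in the knockout. Its 3 passing probe sets read 425 against 707, 142 against 249 and 67.5 against 156, and the other 3 lay under the floor on both arrays. The log2 differences averaged -0.94 ± 0.26 (SD, n = 3 probe sets), and the brightest gave -0.76, or 1.69-fold lower. The other 2 passed the filter through the wild-type array alone, where they were high, so the value of -0.76 is the one read above the median on both arrays. Xiap is the listed gene on the X chromosome, where the median of 238 genes past the filter was -0.55 and 197 of them lay below 0. Of its immediate neighbours, Thoc2 read 319 against 664 and Stag2 955 against 677, so nearby genes took both signs. The part of the X-wide shift in the Xiap value was not tested.

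The death receptor genes gave 1 usable value. Fadd, the adaptor between death receptors and caspase-8, read 444 against 338 (log2 difference 0.37, 1 probe set). Fas read 9.28 and 7.59, under the floor on both arrays, so its level cannot be compared.

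Set side by side, the p53 targets and the BCL2 family had medians of -0.10 and -0.11. The 11 p53 targets ran from -0.53 to 0.08 and the 9 BCL2 family genes from -0.99 to 0.85, with median distances from 0 of 0.10 and 0.27. Pmaip1 and Bbc3, p53 targets filed under the BCL2 family, bear on that contrast, since the wider list of 15 targets had a median distance of 0.20. The 2 caspase genes past the filter gave a median of 0.27, and the 5 apoptosome and IAP genes 0.05 with a range from -0.76 to 1.20. Within the BCL2 family, 5 of 7 pro-apoptotic genes lay below 0 with a median of -0.20, where 51.2% of all genes lay below 0. Bik was among those 5 at -0.01. By probe set the split was near even, with 7 of 13 below 0 and 6 above, 5 of the 6 from Bcl2l11. The 2 pro-survival genes past the filter took opposite signs. No difference between groups was tested, since genes of 1 array pair are not replicates.

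**Figure D4:**
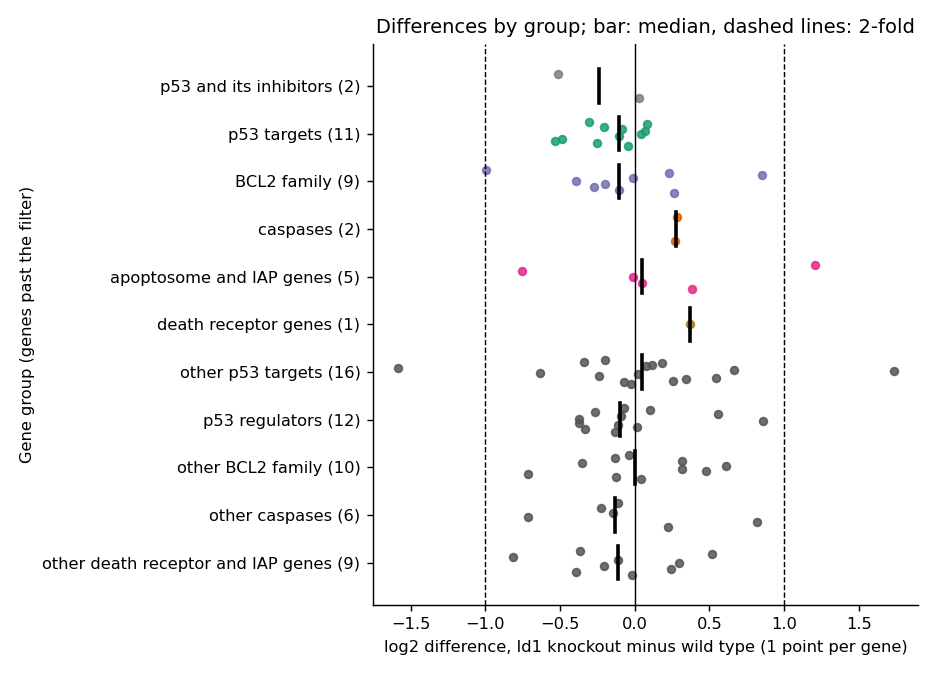
Log2 difference, knockout minus wild type, of each gene past the filter, 1 point per gene, for the 6 groups of listed genes (coloured) and 5 lists of other pathway genes (grey), with the number of genes in brackets, the median as a bar and 2-fold as dashed lines; height within a row has no meaning. The 11 p53 targets run from -0.53 to 0.08, and Birc2, Sfn and Ephx1 lie outside the 2-fold lines.

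Other genes of the pathway were read from lists drawn up by role. Of 27 further p53 targets 16 passed the filter, 1 was 2-fold higher and 1 was 2-fold lower in the knockout, against 3.92% of all genes each way. Sfn, encoding 14-3-3σ, a p53-induced epithelial protein that retains cyclin B1 complexes in the cytoplasm, read 754 against 223 (3.33-fold higher). Ephx1, encoding microsomal epoxide hydrolase, read 218 against 645 (log2 difference -1.59). Cdkn1a, encoding p21, the canonical p53 target of G1 arrest, read 713 against 714, and both of its passing probe sets were below 0 (-0.03 and -0.17). The list median was 0.05 and its median distance from 0 was 0.25, close to the 0.29 of all genes. Past 1.5-fold were 2 of the 16 in each direction, Sfn and Pidd1 higher (0.66 for Pidd1) and Ephx1 and Gtse1 lower (-0.63 for Gtse1). Of all genes 10.5% were past 1.5-fold higher and 11.5% lower.

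Of 12 p53 regulators past the filter, 0 were past 2-fold, against 3.92% of all genes each way, and the median was -0.10. The lists are small, so a count of 0 here and below is near that share. The largest of them was Trp53bp1, encoding the DNA repair protein 53BP1, at 1388 against 752 (log2 differences of 0.86 and 0.44 by 2 probe sets). Of 10 further genes listed with the BCL2 family 0 were past 2-fold by the brightest probe set, with a median of 0.0010. Among the 10, Vdac1, Vdac2, Tmbim6 and Bnip2 are not members of that family. The 3 passing probe sets of Bnip2 ran from 0.61 to 1.10, the latter past 2-fold. The pro-survival gene Bcl2l1, encoding BCL-XL, read 608 against 580, and the neuronal BH3-only gene Hrk 162 against 261 (-0.72). Of 6 genes of caspase adaptors and substrates and of 9 further death receptor, IAP and mitochondrial genes, 0 were past 2-fold by the brightest probe set. The medians of these lists were -0.13 and -0.12. Endog, among the 9, gave 0.52 by its brightest probe set and 1.75, past 2-fold, by its other passing one. In the same list the X-linked gene Aifm1, encoding the mitochondrial apoptosis-inducing factor, read 1235 against 2144 (-0.82). Pidd1, Gtse1 and the genes whose values are given in this paragraph were chosen after their values were seen.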

How the data were processed

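The authors deposited 1 linear intensity per probe set for each of 2 arrays. The intensities are on a common scale whose making is not given in the sources used here. Per the labels, 1 ug of total RNA was used, with a biotin label. The table held 22690 probe sets, 64 of them controls, and 20380 had 1 symbol in the platform annotation of 2016. Intensities were taken to log2 and centred on each array's median (a shift of 0.02), then floored at the 25th percentile (48.4 for the knockout, 47.6 for the wild type). The gene filter at the array median and the 2-fold limit followed, with 1.5-fold as a second description. Promoters and gene order are RefSeq's, GRCm38.p6. Each group was 1 array, so nothing was tested; the number of arrays limits the precision. The 18 spike probe sets had an SD of 0.22. Members, lists and settings were chosen with earlier results of these data known. All 39 members were named by rule; of other lists, Cdkn1a and those past 2-fold. Alternatives covered normalization, floor, filter and probe set choice. The procedure was tested on simulated data with Python 3.11.15, numpy 2.4.6, pandas 2.3.3 and statsmodels 0.14.6.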

Additional observations from a re-analysis of the deposited data

Results flagged for a closer look

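The Birc3 probe set that reads 123 in the knockout against 22.2 in the wild type was singled out because it carries signal outside the comparison, below the brightness filter. With the wild type at the floor, its log2 difference as read is a lower bound of 1.35, or 2.55-fold higher in the knockout. That bound takes the knockout reading as exact, although it lies below the array median of 155.0. The other Birc3 probe set read 4.09 and 13.3, under the floor on both arrays.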

How the results depend on the processing

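Of 314 values recomputed for the 30 genes under 11 alternative settings, 308 moved by less than 0.22. Part of that was fixed in advance. A changed filter, a lower floor or no floor without an offset returned the main value for every gene kept. Birc2 held the only 2-fold call that could reverse, and it did not. The count of genes 2-fold higher was 1, and became 2 with no filter (Birc3 added), 2 with the probe set of largest difference (Bcl2l11 added) and 2 at 1.5-fold. The count 2-fold lower was 0, and became 1 under quantile normalization and 1 under the brightness-dependent loess correction (Pmaip1), 1 with the probe set of largest difference (Xiap, -1.23) and 2 at 1.5-fold. Birc2 stayed between 1.06 and 1.23 in all 11. With no filter, 1 further BCL2 family gene (Bcl2l10, 57.8 against 124) was past 2-fold in place of 0. Group medians moved by less than 0.22 under every alternative run, but with the filter at the 75th percentile no caspase gene was left and that group gave no value. Signs near 0 were not stable: Mdm2, Polk, Diablo, Ccng1, Cycs and Bik changed sign or reached 0 under at least 1 setting. No paired analysis was possible because each group holds 1 array. Dim signals limit Bcl2, Fas, Casp1, Casp8, Casp9 and Birc3.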
